A study of Mus musculus with 6 samples.

Results

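The genes described here encode semaphorins, plexins and neuropilins. They were picked by name, taking every matching gene symbol in the count files. The forms taken were Sema3 to Sema7 with a letter a to g, Plxn with a letter and a digit, and Nrp1 and Nrp2. That gave 31 of 48397 symbols, made up of 20 semaphorins, 9 plexins and 2 neuropilins. Earlier results of these data were known when these families were chosen. The libraries came from live EGFP-positive cells sorted from lungs of PdgfraEGFP/+ mouse pups at postnatal day 8, so both groups carry 1 reporter allele at Pdgfra, which encodes a growth factor receptor found on lung mesenchyme. The dams, not the pups, had been injected at E18.5, late in gestation, with 5E1, an antibody that binds hedgehog ligands, or with control IgG, and each group has 3 libraries. The labels do not say how many pups or litters a library stands for. The p-values therefore measure only how these libraries spread, which may be technical.

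Semaphorins are secreted or membrane-bound guidance cues, and plexins are the receptors that carry their signal into the cell through GTPase-activating domains that act on small RAS-family and RAP GTPases. Class 3 semaphorins are secreted and mostly need a neuropilin as co-receptor to bind a plexin, while classes 4 to 7 are anchored in the membrane and bind plexins directly. First found as axon guidance cues, they also steer vessels and leukocytes, and class 3 members affect branching of the embryonic lung. Neuropilins also bind VEGF family ligands.

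Gene counts summed to 16958433 to 28405457 reads per IgG library and 18857199 to 34318583 per 5E1 library. Ptch1, the hedgehog receptor gene that the pathway induces, measured 411 ± 4.92 in IgG and 90.1 ± 10.4 in 5E1 in CPM, the read count scaled to library size (SD, n = 3 each). Hhip and Gli1, also induced by the pathway, had log2 fold changes of -2.37 and -1.12. Pdgfra itself, at 502 ± 77.5 and 645 ± 73.3 CPM, did not pass the test (edgeR adjusted p 0.0742). Markers of the labelled mesenchyme summed to 73290 to 91890 CPM in IgG and 109400 to 158600 CPM in 5E1 over 8 genes. Most of that sum came from Eln, Col1a1, Col1a2 and Col3a1, with group means of 14750 CPM or more. The others had means of 2338 CPM or less. Only 3 of the 8 were higher (Pdgfrb, Col3a1 and Eln), and Col1a1, Col1a2, Tcf21 and Vim did not pass. Other cell types were present at low levels and moved between groups. Over 12 leukocyte markers the sum was 113 to 136 CPM in IgG and 249 to 417 CPM in 5E1, with 7 of 11 tested higher and Cd3e, a T cell marker, at or near 0. S100a8 (means of 3.03 CPM in IgG and 49.8 CPM in 5E1) and S100a9 (6.21 and 74.3 CPM) carried much of that difference. Lyz2, Cd68, Csf1r and Cd79a did not pass. Sums were 47.4 to 88.6 and 127 to 248 CPM for 6 mesothelial markers and 357 to 417 and 485 to 540 CPM for 7 pericyte markers, with 2 genes of either list higher. Upk1b (means of 35.9 CPM in IgG and 109 CPM in 5E1) carried most of the mesothelial difference, with Lrrn4 also higher. Msln (13.9 and 36.3 CPM), Upk3b, Krt19 and Wt1 did not pass. Abcc9 (means of 111 CPM in IgG and 201 CPM in 5E1) and Kcnj8 (48.05 and 74.9 CPM) carried most of the pericyte difference. Rgs5, at 99.2 and 85.6 CPM, went the other way, and neither it nor Cspg4, Notch3, Higd1b or Cox4i2 passed. For 10 endothelial markers they were 164 to 192 and 177 to 321 CPM, and for 10 epithelial markers 190.4 to 206 and 202 to 504 CPM, with 5E1 replicate 2 highest in both. Over 8 Schwann and neuronal markers the sum was 23.8 to 35.5 CPM in IgG and 12.4 to 20.3 CPM in 5E1, with 1 of 4 tested genes higher (Mbp), 1 lower (S100b, from 16.7 to 25.6 CPM in IgG to 3.46 to 5.76 CPM in 5E1) and Sox10 near 0. S100b alone carried the difference in that sum. In bulk RNA, fewer cells of a type and less RNA per cell cannot be told apart.

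Of the 31 genes, 30 had enough reads to be tested, and 12 changed at an edgeR adjusted p under 0.05. Among them 4 were higher in 5E1 (Sema3d, Sema3e, Sema5b and Nrp1) and 8 lower (Sema3c, Sema4d, Sema6d, Plxna2, Plxna3, Plxnb1, Plxnc1 and Plxnd1). Over all 16198 genes tested 23.2% were called, 12.1% higher and 11.1% lower. The share of the 30 genes was 40.0% in all, 13.3% higher and 26.7% lower. Scaled by library size alone, 3 members were higher and 12 lower, and over all genes 1312 were higher and 3274 lower in place of 1966 and 1791. Sema3d and Sema3e were called with at least a 2-fold change, as were 7.96% of all genes. All 5E1 libraries lay above all IgG libraries in 5 members and below them in 11, patterns that 20.8% and 21.4% of all genes had (42.2% for either). Abundant genes are called more often, and among the 7239 genes with a mean of 20 CPM or more 29.7% were called, 15.3% higher and 14.4% lower. Of the 18 members at that level 50.0% were called, with 2 higher and 7 (38.9%) lower. The share higher was near the background and the share lower above it. Of the 9 plexins 5 (55.6%) were lower and none higher. Without IgG replicate 1, IgG replicate 2 or 5E1 replicate 3, the members called lower were 5, of them 3 plexins. The median log2 fold change, 5E1 over IgG, was -0.45 for the plexins and 0.13 for the 19 semaphorins tested, beside 0.00 for all genes, which became -0.14 with library size alone.

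**Figure D1:**
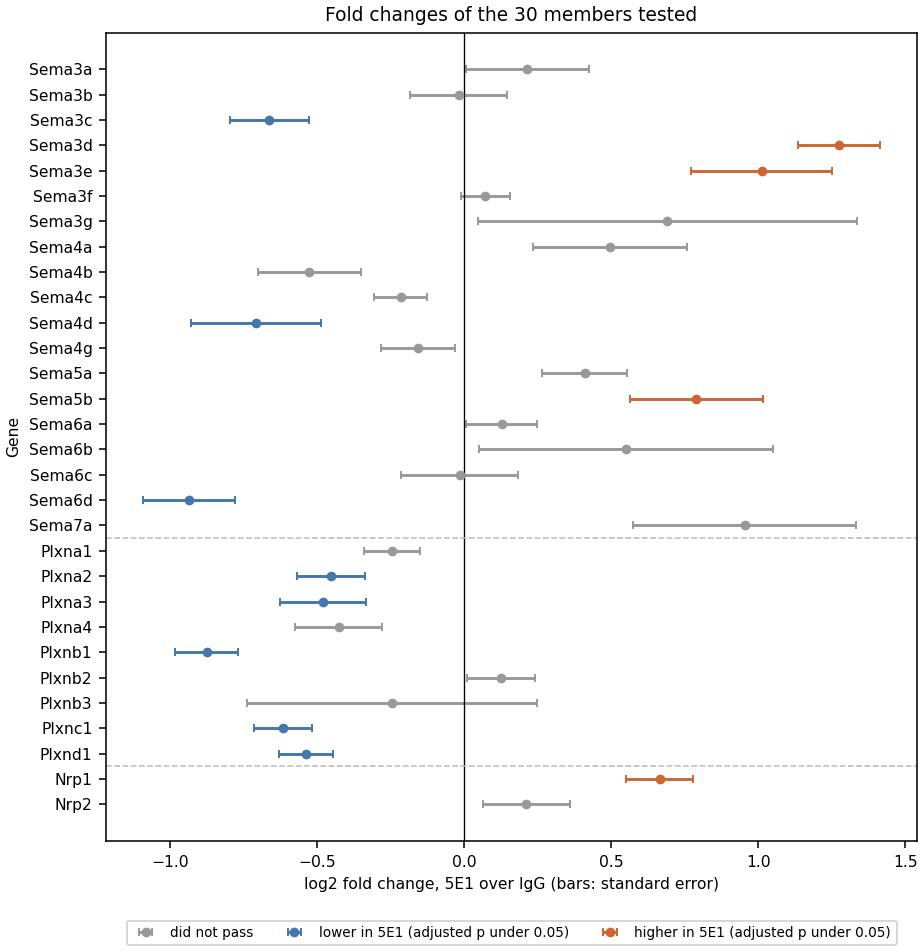
Log2 fold change of 5E1 over IgG (x axis) for each of the 30 genes tested (y axis), with bars of 1 standard error either side and dashed lines between semaphorins, plexins and neuropilins. Orange marks the 4 genes called higher, blue the 8 called lower and grey the 18 that did not pass. Among plexins, 8 of 9 points lie left of 0, and Plxnb2 (0.13, but -0.03 with library size alone) lies right of it.

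Promoters are shown for 6 of the 7 genes that kept their call under all 14 other analyses run: the secreted ligands that moved in opposite directions, the plexins that fell together, and the co-receptor that rose. Sema6d, which has 2 starts in the table, is left out. These are the 250 bases before the RefSeq transcription start (GRCm38.p6), 5′ to 3′ on the gene's strand. Capitals mark the GC box, GGGCGG or its reverse complement CCGCCC, the core letters bound by the SP family of general promoter factors.
Sema3c (lower), chr5:17574566-17574815, plus strand: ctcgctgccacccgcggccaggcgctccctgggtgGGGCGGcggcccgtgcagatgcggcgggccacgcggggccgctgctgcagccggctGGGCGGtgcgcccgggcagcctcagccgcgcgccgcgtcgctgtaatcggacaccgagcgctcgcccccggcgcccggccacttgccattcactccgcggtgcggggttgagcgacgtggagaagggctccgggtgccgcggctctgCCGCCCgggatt
Sema3d (higher), chr5:12382916-12383165, plus strand: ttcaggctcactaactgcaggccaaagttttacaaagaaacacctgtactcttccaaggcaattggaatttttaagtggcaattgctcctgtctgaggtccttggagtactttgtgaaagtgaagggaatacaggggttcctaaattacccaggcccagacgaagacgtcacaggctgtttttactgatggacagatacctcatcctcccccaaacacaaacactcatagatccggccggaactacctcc
Plxnb1 (lower), chr9:109095186-109095435, plus strand: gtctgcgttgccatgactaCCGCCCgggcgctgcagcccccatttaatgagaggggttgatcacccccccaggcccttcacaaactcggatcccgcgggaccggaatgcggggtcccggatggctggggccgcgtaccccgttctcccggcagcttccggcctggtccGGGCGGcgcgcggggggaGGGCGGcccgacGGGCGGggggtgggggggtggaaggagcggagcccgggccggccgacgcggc
Plxnc1 (lower), chr10:94944846-94945095, minus strand: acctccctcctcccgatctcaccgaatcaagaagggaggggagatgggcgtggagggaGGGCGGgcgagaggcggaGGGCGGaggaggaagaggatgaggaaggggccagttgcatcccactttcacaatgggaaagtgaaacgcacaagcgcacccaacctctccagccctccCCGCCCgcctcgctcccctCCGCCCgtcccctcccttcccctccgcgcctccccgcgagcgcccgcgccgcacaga
Plxnd1 (lower), chr6:115995006-115995255, minus strand: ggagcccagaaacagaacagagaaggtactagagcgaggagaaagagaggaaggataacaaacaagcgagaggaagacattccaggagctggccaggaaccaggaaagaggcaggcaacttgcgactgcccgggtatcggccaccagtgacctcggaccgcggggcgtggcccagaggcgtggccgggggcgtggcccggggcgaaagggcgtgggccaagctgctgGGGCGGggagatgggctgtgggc
Nrp1 (higher), chr8:128358823-128359072, plus strand: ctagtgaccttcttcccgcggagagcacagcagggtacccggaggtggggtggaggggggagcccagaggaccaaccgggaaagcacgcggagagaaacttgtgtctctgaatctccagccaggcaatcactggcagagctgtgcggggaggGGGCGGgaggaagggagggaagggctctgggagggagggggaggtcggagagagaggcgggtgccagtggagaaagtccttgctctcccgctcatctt

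The promoters of Sema3c and Sema3d differ in base composition. That of Sema3c is 78.4% G and C with 3 GC boxes, and that of Sema3d is 46.8% G and C with none. All 3 plexin promoters hold GC boxes, 4 in Plxnb1, 4 in Plxnc1 and 1 in Plxnd1, and the Nrp1 promoter holds 1. Matched by symbol, 26 of the 31 genes have promoters in the table, in 37 windows of 300 bases that end 50 bases past the start. A GC box occurs in 21 of these 26 genes (80.8%) and in 38.2% of the 27025 gene symbols of the table, on either strand. A TATA box, TATAAA on either strand, occurs in 0 of 26 and in 15.7% of all symbols. The binding letters of the hedgehog-regulated GLI factors, GACCACCCA on either strand, occur in 0 of 26 and in 0.29% of all symbols. With 1 mismatch allowed they occur in 4 of 26 (Plxna2, Sema4b, Sema6b and Sema6c) and in 7.73% of all symbols. The 1-mismatch search, the GC box and the TATA box were added after the exact GLI letters gave no match. The 300-base windows of these genes held 41.3% (Sema3a) to 75.7% (Sema3c) G and C. Most of them lay above 52.7%, the median over all windows of the table. The 26 genes have 37 windows, and the 27025 symbols have 32851. The part of base composition and of window number in these shares was not tested. These counts describe letters in short windows and say nothing of whether a factor binds.

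Among the ligands, Sema3c was the most abundant semaphorin in both groups once counts were divided by the length of merged exons. It stood at 59.1 ± 10.9 CPM per kb in IgG and 37.3 ± 2.79 CPM per kb in 5E1 (SD, n = 3 each). In IgG it was followed by Sema6d (25.6) and Sema4c (24.2 CPM per kb), whose libraries overlapped, then Sema5a (10.5), Sema3f (8.09) and Sema3d (7.70), the last pair overlapping too. The order below Sema3c changed in 5E1, where Sema4c (20.8), Sema3d (18.7), Sema5a (13.9) and Sema6d (13.4 CPM per kb) followed, each overlapping the next. By mean level Sema3d thus passed Sema3f and Sema5a, and Sema6d dropped behind Sema4c, Sema3d and Sema5a. Sema3f came next in 5E1 (8.50), and all remaining semaphorins had means under 5 CPM per kb in both groups. Levels of the least abundant, Sema4f, were 0.0322 and 0.101 CPM per kb, from 13 reads in all IgG libraries together and 47 in 5E1, and it was not tested.

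**Figure D2:**
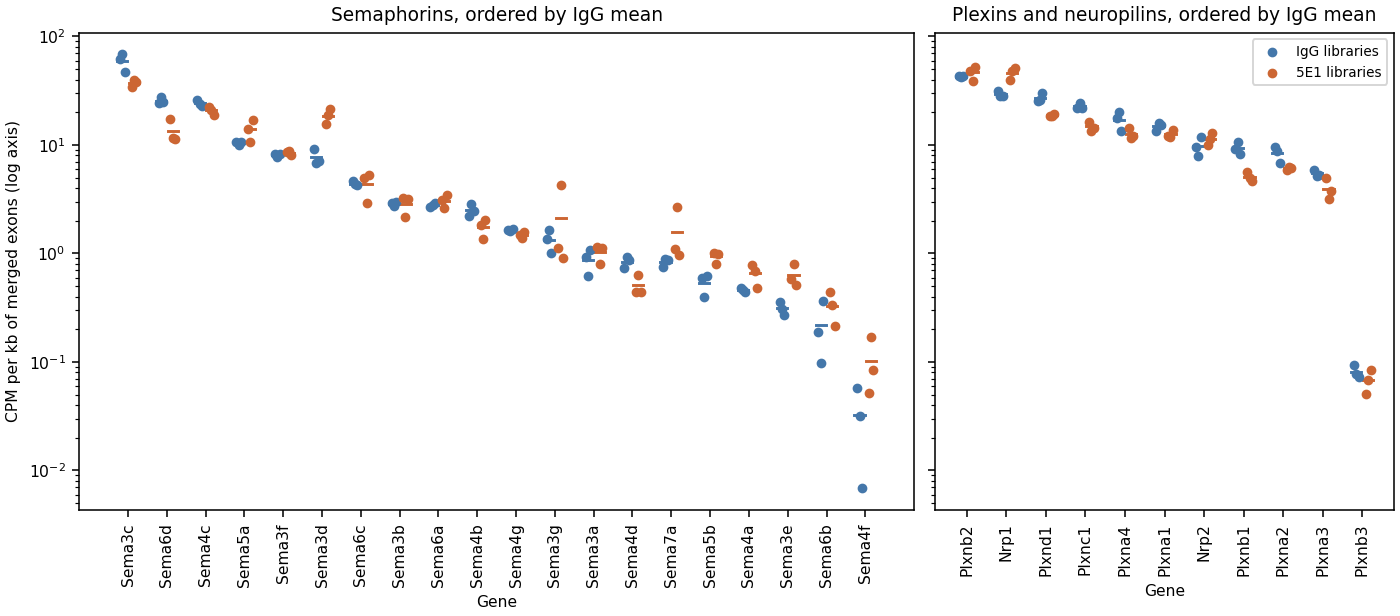
Normalised counts per kb of merged exons (y axis, log scale) for 20 semaphorins (left) and 11 receptors (right), ordered by their IgG mean. Each point is 1 library, blue for IgG and orange for 5E1, and each short line is a group mean. Levels run from Sema3c (59.1 in IgG) down to Sema4f, and Plxnb3 lies far below every other receptor.

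Among class 3 ligands the most abundant fell and another rose. Sema3c, which binds neuropilins with Plxnd1 or a class A plexin, measured 438, 490.2 and 337 CPM in the IgG libraries and 244, 282 and 272 CPM in the 5E1 libraries. All 5E1 values lay below all IgG values. The decrease was 1.58-fold (log2 fold change -0.66, SE 0.13, edgeR adjusted p 0.00577). Sema3d, a class 3 ligand known from heart and vein development, measured 78.6, 59.03 and 60.95 CPM in IgG and 135, 162 and 184 CPM in 5E1. The groups were well apart, and the increase was 2.42-fold (log2 fold change 1.27, SE 0.14, edgeR adjusted p 0.00028). In the fit of all 6 libraries no other member changed by more. Sema3e, which binds Plxnd1 without a neuropilin, rose from a low level. It measured 3.34, 2.86 and 2.54 CPM in IgG and 5.38, 7.41 and 4.79 CPM in 5E1, a 2.02-fold increase (SE 0.24 on the log2 scale, edgeR adjusted p 0.0126). Its call ended without IgG replicate 3, the edgeR adjusted p then being 0.0561 within a range of 0.00127 to 0.0561. That range is over 13 alternatives, since the filter at 5 CPM in 3 libraries removed the gene.

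These changes altered the makeup of class 3 transcripts, a measure that does not depend on how libraries are scaled. Sema3c held 72.8%, 77.5% and 69.6% of the class 3 sum per kb in the IgG libraries and 52.9%, 52.5% and 52.01% in the 5E1 libraries. Sema3d held 10.8%, 7.75% and 10.4% in IgG and 24.3%, 25.05% and 29.2% in 5E1. Neither share overlapped between groups. With 3 libraries against 3, Sema3c was 7.79 ± 1.91 times as abundant per kb as Sema3d in IgG and 2.02 ± 0.207 times in 5E1 (SD). The class sum itself was 80.3 ± 10.9 and 71.1 ± 5.69 CPM per kb, with libraries of the groups overlapping. Both genes lie on mouse chromosome 5 (GRCm38), where 4 class 3 genes sit near each other: Sema3d at chr5:12383385-12588948, Sema3a at chr5:13125414-13602565, Sema3e at chr5:14025276-14256689 and Sema3c at chr5:17574281-17730268. Sema3d and Sema3e of these rose and Sema3c fell. Mesothelial and pericyte marker sums were also higher in 5E1, as given above, and their part in the rise of Sema3d and Sema3e was not tested.

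**Figure D3:**
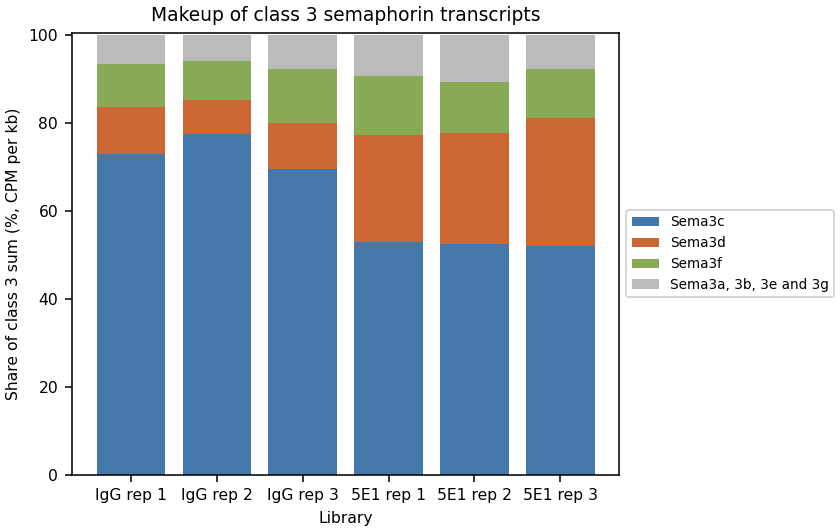
Share of Sema3c, Sema3d, Sema3f and the 4 other class 3 genes pooled in the summed class 3 level (y axis, percent of CPM per kb) in each library (x axis). Sema3c takes 69.6% to 77.5% in the IgG libraries and 52.01% to 52.9% in the 5E1 libraries, and the orange part, Sema3d, is larger in all 5E1 libraries.

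The 4 other class 3 genes did not pass. Sema3f, a ligand of Nrp2, measured 42.6, 40.6 and 42.9 CPM in IgG and 44.6, 45.6 and 42.3 CPM in 5E1, with groups that overlapped and a log2 fold change of 0.07 (SE 0.08, edgeR adjusted p 0.579). Sema3a, the founding ligand of Nrp1, lay at 8.62 to 14.9 and 11.2 to 16.03 CPM, and Sema3b at 13.05 to 14.2 and 10.4 to 15.5 CPM. Sema3g, known as an endothelial ligand, had 1 high library, with 4.54 to 7.45 CPM in IgG and 5.05, 19.5 and 4.09 CPM in 5E1 replicates 1 to 3. The same 5E1 replicate 2 had the highest endothelial marker sum (321 CPM) and epithelial marker sum (504 CPM). Their part in the Sema3g value was not tested.

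Membrane-bound semaphorins moved both ways. Sema6d, which binds Plxna1 and Plxna4, was the member that fell most in the fit of all 6 libraries. Its libraries read 257, 293 and 261 CPM in IgG and 183, 121 and 121 CPM in 5E1. With no overlap, the decrease was 1.91-fold (log2 fold change -0.94, SE 0.16, edgeR adjusted p 0.00308). Its share of the class 6 sum per kb went from 77.5% ± 1.64 to 63.1% ± 6.15 (SD, n = 3 each). Sema6a, a ligand of Plxna2 and Plxna4, measured 23.7, 24.4 and 25.6 CPM in IgG and 27.2, 22.8 and 30.5 CPM in 5E1, and Sema6c 27.5, 25.8 and 25.2 CPM in IgG and 29.4, 17.3 and 31.3 CPM in 5E1. Both overlapped between groups and did not pass (edgeR adjusted p 0.489 and 0.966). Sema6b stayed at or under 1.74 CPM in every library and did not pass.

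In class 4, where ligands act mainly through class B plexins, 1 of 5 tested genes fell. Sema4d, the ligand of Plxnb1 and a product of lymphocytes as well, read 5.59, 7.11 and 6.68 CPM in IgG and 3.42, 4.91 and 3.42 CPM in 5E1. No 5E1 library reached an IgG library, and the decrease was 1.63-fold (log2 fold change -0.71, SE 0.22, edgeR adjusted p 0.0399). This call ended when IgG replicate 1, 2 or 3 or 5E1 replicate 1 or 3 was left out, with an edgeR adjusted p of 0.0126 to 0.128 over all alternatives. Of the lymphocyte markers, Cd3e had 6 reads in all IgG libraries and 1 in 5E1, and Cd79a did not pass (edgeR adjusted p 0.293). The part of lymphocytes in the Sema4d value was not tested. Sema4c, a ligand of Plxnb2, measured 118, 110.2 and 105 CPM in IgG and 103, 96.6 and 87.3 CPM in 5E1. Its groups did not overlap, but it did not pass (log2 fold change -0.22, SE 0.09, edgeR adjusted p 0.107). Neither did Sema4b (log2 fold change -0.53, edgeR adjusted p 0.0522) or Sema4g (-0.16, 0.401), though both also had every 5E1 library below every IgG library. Over all genes 21.4% had such a pattern. Sema4a, at 2.40 to 2.62 CPM in IgG and 2.61 to 4.24 CPM in 5E1, overlapped.

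Class 5 semaphorins carry thrombospondin repeats. Sema5b, the scarcer of the pair, rose from 4.19, 2.80 and 4.43 CPM in IgG to 7.17, 5.72 and 7.07 CPM in 5E1, which was 1.73-fold (log2 fold change 0.79, SE 0.23, edgeR adjusted p 0.0284). Without IgG replicate 1 or 2, without 5E1 replicate 1 or 3, or with library size alone, it was no longer called, within an adjusted p range of 0.00885 to 0.0945. Sema5a, which binds Plxnb3 and class A plexins, measured 201, 187 and 199 CPM in IgG and 264, 200 and 316 CPM in 5E1. Of the 5E1 libraries replicate 2 overlapped the IgG libraries, and the gene did not pass (log2 fold change 0.41, SE 0.14, edgeR adjusted p 0.0648). It was called by DESeq2 and under both other low-count filters. Without 5E1 replicate 2 its log2 fold change was 0.57 and the edgeR adjusted p 0.00268, within a range of 0.00138 to 0.218 over all alternatives. Sema7a, a GPI-anchored ligand of Plxnc1 and of beta 1 integrin, measured 2.45, 2.91 and 2.87 CPM in IgG and 3.64, 8.93 and 3.17 CPM in 5E1. Here too 5E1 replicate 2 was far higher than the others, and the gene did not pass (edgeR adjusted p 0.096).

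Among the receptors, plexins made up the genes that fell and Nrp1 was the one that rose. Summed over the 9 plexins, libraries read 146, 154 and 144 CPM per kb in IgG and 126, 109 and 127 CPM per kb in 5E1. The neuropilin sum read 40.96, 35.95 and 40.5 in IgG and 49.6, 59.3 and 64.5 CPM per kb in 5E1. Neither sum overlapped between groups. Nrp1 per plexin transcript, both per kb, stood at 21.4%, 18.2% and 19.9% in IgG and at 31.4%, 44.1% and 40.6% in 5E1, a ratio that needs no library scale. The leukocyte, mesothelial and pericyte marker sums were higher in 5E1, as given above. Their part in the receptor values was not tested.

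Plxnb1, the receptor of Sema4d that also couples to RhoA through PDZ-RhoGEF and LARG, fell most among the plexins. It measured 87.5, 102 and 79.3 CPM in IgG and 53.6, 47.9 and 44.8 CPM in 5E1. The groups did not overlap and the decrease was 1.84-fold (log2 fold change -0.88, SE 0.11, edgeR adjusted p 0.000385). Plxnc1, the receptor of Sema7a, measured 183, 204 and 182 CPM in IgG and 137, 113 and 121 CPM in 5E1, a 1.53-fold decrease with no overlap (log2 fold change -0.62, SE 0.10, edgeR adjusted p 0.00149). Plxnd1, the receptor of Sema3e and with a neuropilin of Sema3c, is known above all from endothelium. Its values were 186, 189 and 219.7 CPM in IgG and 134, 136 and 141 CPM in 5E1, tightly grouped and apart (1.45-fold lower, log2 fold change -0.54, SE 0.09, edgeR adjusted p 0.0022). Of 10 endothelial markers Tek was higher and Erg lower (log2 fold changes 0.87 and -0.44, edgeR adjusted p 0.00227 and 0.027), and the others did not pass. The part of endothelial cells in the Plxnd1 value was not tested. These 3 plexins were called lower in each of the 14 alternatives.

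Class A plexins are the partners of neuropilins for most class 3 ligands, and 2 of 4 fell. Over all genes 11.1% were called lower, and 14.4% of those with a mean of 20 CPM or more. Plxna2 measured 164, 150.0 and 116 CPM in IgG and 102, 107 and 106 CPM in 5E1, with the lowest IgG library still above the highest 5E1 library (log2 fold change -0.45, SE 0.12, edgeR adjusted p 0.019). Without IgG replicate 1 or 2 or 5E1 replicate 1 or 3 its call ended, within an adjusted p range of 4.16e-05 to 0.0819. Plxna3 measured 46.5, 41.1 and 41.9 CPM in IgG and 38.9, 24.9 and 29.5 CPM in 5E1, again without overlap (log2 fold change -0.48, SE 0.15, edgeR adjusted p 0.0401). Its call ended with the filter at 5 CPM and without IgG replicate 1, 2 or 3 or 5E1 replicate 2 or 3, within an adjusted p range of 0.000174 to 0.125. Plxna4, the most abundant class A plexin per kb in IgG, measured 250.1, 284 and 188 CPM in IgG and 203, 163 and 172 CPM in 5E1. Its lowest IgG library lay inside the 5E1 range, and it did not pass (log2 fold change -0.43, SE 0.15, edgeR adjusted p 0.0614). Plxna1 measured 123, 145 and 137.5 CPM in IgG and 109, 108 and 125 CPM in 5E1, overlapping in 1 library (log2 fold change -0.24, SE 0.10, edgeR adjusted p 0.0873).

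Plxnb2, the receptor of Sema4c and a main plexin of many epithelia, was the most abundant plexin and was not among those that fell. It measured 332, 328 and 331 CPM in IgG and 372, 301 and 407 CPM in 5E1, which overlapped (log2 fold change 0.13, or -0.03 with library size alone, SE 0.11, edgeR adjusted p 0.468). Its share of the plexin sum per kb was 29.4%, 27.7% and 29.8% in IgG and 38.3%, 35.8% and 41.5% in 5E1. Plxnb3, known from oligodendrocytes, stayed under 1 CPM in every library, with 40 reads over IgG and 36 over 5E1, and no difference was detectable at this depth. So the 2 most abundant receptor genes per kb in 5E1, Plxnb2 (46.7 ± 6.97) and Nrp1 (46.4 ± 6.18), overlapped there, whereas in IgG they were apart at 42.8 ± 0.27 and 29.3 ± 1.81 CPM per kb (SD, n = 3 each).

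Nrp1, the co-receptor of class 3 semaphorins and of VEGF, measured 307, 274 and 279 CPM in IgG and 388, 470.3 and 505 CPM in 5E1. All 5E1 libraries lay above all IgG libraries, by 1.58-fold in the fit (log2 fold change 0.66, SE 0.11, edgeR adjusted p 0.00236), and the gene was called in each of the 14 alternatives. Nrp2, the paralogue favoured by Sema3f and by VEGF-C, measured 114, 94.2 and 141 CPM in IgG and 118, 133 and 153 CPM in 5E1. Those ranges overlapped, with a log2 fold change of 0.21 (SE 0.15, edgeR adjusted p 0.341). Nrp1 was 2.39 to 3.52 times as abundant per kb as Nrp2 in the IgG libraries and 3.97 to 4.27 times in the 5E1 libraries.

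**Figure D4:**
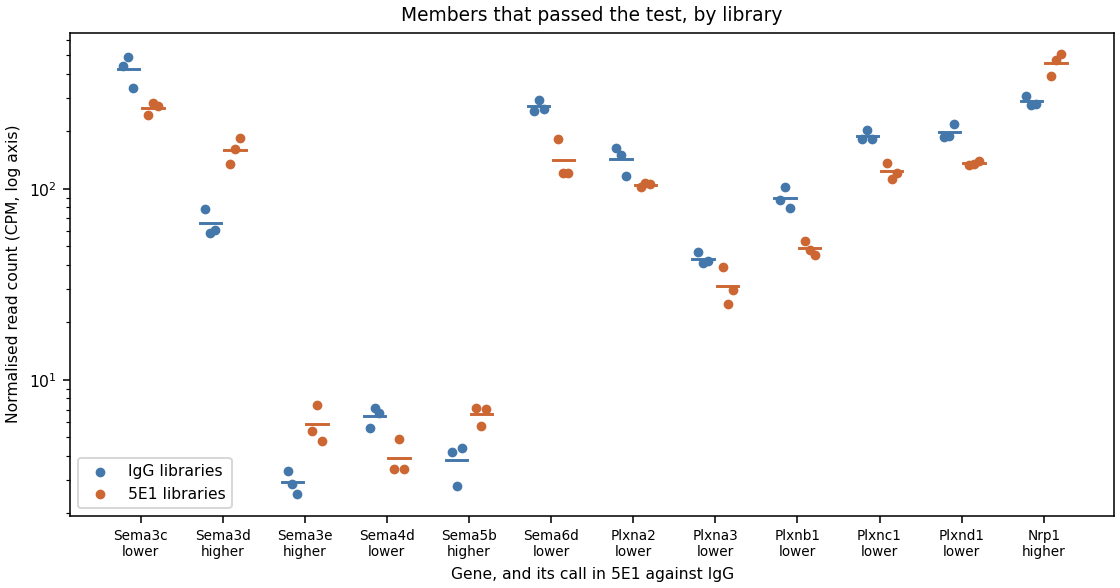
Normalised read count (y axis, CPM, log scale) of the 12 genes that passed the test (x axis), with their call under the name. Each point is 1 library, blue for IgG and orange for 5E1, and each short line is a group mean. In all 12 genes the 3 orange points lie on 1 side of the 3 blue points.

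Placed beside the receptor it is known to bind, a ligand moved with it in some cases and against it in others. Sema3c and Plxnd1 both fell (log2 fold changes -0.66 and -0.54). Of the neuropilins that Sema3c also binds, Nrp1 rose (0.66) and Nrp2 (0.21) did not pass. Sema4d and Plxnb1 both fell (-0.71 and -0.88). Sema6d fell (-0.94) while Plxna1 (-0.24) and Plxna4 (-0.43) did not pass. Sema3e rose (1.01) while Plxnd1 fell, and Plxnc1 fell (-0.62) while Sema7a (0.95) did not pass. Sema4c (-0.22) and Plxnb2 (0.13), each the most abundant of its class per kb, did not pass. These pairings were set side by side after the values were seen.

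Beyond the ligands and receptors, 57 of 59 genes known to work with them were tested, and 9 rose and 7 fell (15.8% and 12.3%, near the shares of all genes). With library size alone 6 rose and 14 fell, and without IgG replicate 3 the number that fell was 3. VEGF family ligands of neuropilins included 2 of 5 that rose (40.0%) and none that fell, beside 12.1% and 11.1% of all genes. Vegfc, a ligand of Nrp2 and of the VEGF receptor gene Flt4, measured 5.31, 4.59 and 5.30 CPM in IgG and 9.35, 13.4 and 12.9 CPM in 5E1 (2.34-fold, edgeR adjusted p 0.0011). Pgf, a ligand of Nrp1 and Flt1, measured 26.2, 30.6 and 34.9 CPM in IgG and 49.2, 72.6 and 60.97 CPM in 5E1 (SE 0.15 on the log2 scale, edgeR adjusted p 0.00162). Both had groups that did not overlap. Vegfa (log2 fold change -0.31), Vegfb (-0.07) and Figf, which encodes VEGF-D (-0.10), did not pass.

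Of 14 tested partner receptors 2 rose (14.3%) and 1 fell (7.14%), shares near those of all genes (12.1% and 11.1%). Met, the HGF receptor gene whose product can associate with class B plexins, fell from 89.9, 107.5 and 75.8 CPM in IgG to 54.01, 43.2 and 55.1 CPM in 5E1 (log2 fold change -0.84, SE 0.14, edgeR adjusted p 0.00227). Tyrobp, an adaptor of myeloid cells that works with Plxna1 and Trem2, rose 2.35-fold (edgeR adjusted p 0.000947), in the libraries where leukocyte markers also rose. Flt1 rose 2.47-fold at low level with 5E1 replicate 2 highest (10.9, 26.1 and 9.76 CPM in 5E1, 5.84 to 7.06 CPM in IgG). Without that library, which had the highest endothelial marker sum (321 CPM), the log2 fold change was 0.70 in place of 1.31, and the part of endothelial cells was not tested. Its edgeR adjusted p of 0.0446 lost the threshold without IgG replicate 1, 2 or 3, with limma-voom and with library size alone, within a range of 6.40e-05 to 0.151. The integrin gene Itgb1, the partner of Sema7a, was the most abundant of this list (1877 and 1765 CPM) and did not pass. Of 4 convertases, which cut class 3 semaphorins, 1 rose (25.0%) and none fell, beside the same 12.1% and 11.1% of all genes. It was Pcsk6 (log2 fold change 0.57, SE 0.14, edgeR adjusted p 0.0152). Its edgeR adjusted p was 0.0587 without 5E1 replicate 3, the highest of a range from 5.42e-05. Furin, Pcsk5 and Pcsk7 did not pass.

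Of 34 tested cytoplasmic mediators 4 rose (11.8%) and 6 fell (17.6%), beside 12.1% and 11.1% of all genes. Mras, a RAS-family GTPase gene and a substrate of plexin GAP activity, rose from 25.6, 25.1 and 23.7 CPM in IgG to 46.02, 55.9 and 47.7 CPM in 5E1 (2.01-fold, edgeR adjusted p 0.000131). Rnd1, whose product binds the plexin cytoplasmic domain, rose 2.43-fold from a low level (2.66 ± 0.626 to 6.50 ± 0.946 CPM, SD, n = 3 each, edgeR adjusted p 0.00367). Rnd3 fell (log2 fold change -0.30, edgeR adjusted p 0.0447). Mical1, which encodes a plexin-bound oxidase that takes actin filaments apart, fell by 0.35 on the log2 scale (SE 0.08, edgeR adjusted p 0.0113), and Ranbp9 rose by 0.43 (SE 0.10, edgeR adjusted p 0.0121). Gipc1, which encodes a PDZ protein that binds the Nrp1 tail, fell from 43.8 ± 2.74 to 31.8 ± 4.88 CPM (log2 fold change -0.47, edgeR adjusted p 0.0169) while Nrp1 rose. Farp1 (-0.46), Cfl1 (-0.42) and Dpysl4 (-0.85) fell too and Arhgap35 (0.30) rose. Gipc1, Rnd3, Farp1, Cfl1, Dpysl4 and Arhgap35 were chosen after their values were seen. Cfl1 and Gipc1 lost the threshold without IgG replicate 3, Farp1 without IgG replicate 2, and Ranbp9 without IgG replicate 2 or 5E1 replicate 3 and with library size alone, with edgeR adjusted p of up to 0.0506, 0.0688, 0.0566 and 0.0586. With 1 library left out, Rnd3 kept its call only without IgG replicate 2 or 5E1 replicate 2, Dpysl4 only without 5E1 replicate 1 and Arhgap35 only without 5E1 replicate 2. Their edgeR adjusted p reached 0.161, 0.122 and 0.228 over all alternatives. The GTPase genes Rac1 (0.02) and Rhoa (-0.05), which act in all these pathways, did not pass.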

How the data were processed

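RNA sequencing of 6 libraries was analysed, 3 per antibody group, grouped by their titles. The authors deposited unnormalised read counts by gene symbol; HTSeq's summary lines were left out (unaligned reads were 20.4% to 42.9%). The submitters' processing notes name mm10, the aligner STAR (2.5.0c), HTSeq (0.6.0), bedtools (2.17.0), Picard (1.126), R (3.5.1) and DESeq2 (1.10.0). Not given in the sources used here are the annotation, strand setting and handling of duplicates. No replicates matched within sampling noise. Chi-square over degrees of freedom was 37.1 and 50.5 for the pairs with 5E1 replicate 2, and 14.8 to 18.0 for all other pairs.

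Genes were filtered with filterByExpr (minimum count 10, minimum total 15), TMM-scaled and tested by the quasi-likelihood method of edgeR 4.0.16 under R 4.3.3 (robust, prior count 0.125, group as the only term). Tests are two-sided, with Benjamini-Hochberg adjustment over all genes tested and a threshold of 0.05. The test was tried on simulated data first. CPM uses TMM-scaled library sizes, and the SE of a log2 fold change is its unshrunken value divided by the root of the F statistic. Levels per kb use merged exons of GENCODE M21 (GRCm38); all 31 symbols matched. Exons overlap another gene in Plxna1 (970 bases), Sema4c (334), Plxnb1 (257), Plxnc1 (115), Plxna4 (110), Nrp1 (80) and Sema4a (73), so their counts may hold or lack shared reads.

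Every member is named. Values in every library are given for members that passed or with a mean over 20 CPM in a group or an absolute log2 fold change of at least 1, and for others where 1 library stood apart. Called partner genes are named by smallest p. Members and lists were chosen with earlier results of these data known. The 14 alternatives were 2 other scalings (RLE, library size alone), 2 other tools (DESeq2 1.42.0 and voom of limma 3.58.1), 2 other filters (none, or 5 CPM in 3 libraries), estimation without robust, a replicate block, and leaving out each library.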

Additional observations from a re-analysis of the deposited data

How the results depend on the processing

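Of the 12 members called, 7 (Sema3c, Sema3d, Sema6d, Plxnb1, Plxnc1, Plxnd1 and Nrp1) were called in all 14 alternatives, and 5 (Sema3e, Sema4d, Sema5b, Plxna2 and Plxna3) were lost in at least 1. A further 6 (Sema4b, Sema4c, Sema5a, Sema7a, Plxna1 and Plxna4) were called in at least 1 alternative, and 12 of those tested in none. No call changed direction. With 1 library left out, 5 to 7 members were called lower instead of 8 and 3 to 5 higher instead of 4. The low of 5 arose without IgG replicate 1, IgG replicate 2 or 5E1 replicate 3, when 3 plexins were lower. Partner genes called lower numbered 3 (without IgG replicate 3) to 7 with 1 library left out, and 14 instead of 7 with library size alone, which moves the all-gene median from 0.00 to -0.14 (log2). In that setting 7 plexins were lower and 12 members, against 3 members higher. DESeq2 and no low-count filter each gave 6 members higher and 10 lower. Same-numbered libraries did not deviate together (correlations -0.11, -0.04 and -0.09), and no label links them. With 3 libraries per group, these correlations cannot exclude a shared litter or batch. With the replicate block 4 members were higher and 8 lower, and 8 partner genes higher and 6 lower. In that setting 3220 of all genes were called instead of 3757. Depth limits Sema4f, Sema6b and Plxnb3, which lie near or under 1 CPM.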
